A study of Mus musculus with 16 samples.

Results

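The early response to E1A induction was described from 4 arrays, harvested 9 and 12 h after induction and pooled, against the 2 arrays at 0 h. The 9 and 12 h arrays were taken by their column names, 2 for each time, and are 4 of the 16 arrays in the study. The cells were mouse embryonic stem cells of mixed C57BL/6, C3H and CD1 background, and total RNA was hybridised to single-colour Illumina bead arrays, 1 array per sample. The groups used were 9 h of E1A induction (2 arrays), 12 h of E1A induction (2 arrays) and 0 h (2 arrays). The neighbouring 3, 6 and 24 h groups and the 48 h pair (E1A induction and a cherry control, 2 arrays each) are used for context. Every group, 0 h and the control included, is listed under the same treatment of E1A induction. The labels give neither the promoter that drives E1A nor whether the cherry control carried it. No uninduced sample was harvested at 9 or 12 h, so induction and time in culture cannot be told apart in this comparison. Nothing in the labels says that the 2 arrays of a group came from separate cultures, so the p-values rest on a spread between samples that may be technical in origin.

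E1A is the first protein made by an infecting adenovirus. It binds the retinoblastoma proteins, which frees E2F factors to turn on genes for DNA replication, and it binds the acetyltransferases p300 and CBP, which many transcription factors need as coactivators. Mouse embryonic stem cells in the naive state are held there by a network of factors that includes Nanog, Esrrb, Klf2, Klf4, Klf5, Tbx3 and Zfp42 around the core pair Pou5f1 (Oct4) and Sox2. When they leave that state towards the primed epiblast, naive genes are lost before the core pair.

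Expression is given as normalized log2 intensity, on which a difference of 1 corresponds to a 2-fold difference between samples for the same probe; levels of different genes are not comparable. An offset of 16 added to the intensities makes small fold changes of dim probes smaller still. A probe was called when its Benjamini-Hochberg adjusted p was under 0.05 in limma's moderated test over the 13974 probes detected on at least 2 of the 16 arrays. The 6 arrays were alike in quality, with median raw intensities between 130.5 and 135.9, between 12221 and 12471 detected probes, and correlations of 0.995 to 0.996 within groups. The median standard error of the pooled difference was 0.10.

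The cell type named in the labels was checked first. All 8 pluripotent stem cell markers were detected on all 4 arrays at 9 and 12 h and on both 0 h arrays. Their summed normalized intensity, taken back to the linear scale, lay between 31818 and 33123 at 9 and 12 h, against 40049 to 42941 at 0 h. Feeder fibroblast markers had 4 of 8 members detected on none of the 9 and 12 h arrays (Col1a2, Col3a1, Lum and Postn), and their summed intensity ran from 1395 to 1587 at 9 and 12 h, against 1548 to 1580 at 0 h. Markers of trophectoderm (Cdx2, Elf5, Hand1), mesoderm (Kdr, Mesp1, Mixl1) and neural cells (Pax6, Sox1, Tubb3) were not detected on the 9 and 12 h arrays. The fourth trophectoderm marker, Plac1, was detected on some of these arrays but not on all. The fourth mesoderm marker, T, was matched to no probe. The fourth neural marker, Nes, an intermediate filament of neural progenitors, was detected on all 4, and the summed neural intensity was 126 to 143 at 9 and 12 h, against 114 to 118 at 0 h. Nes rose by 0.61 on the log2 scale (adjusted p = 0.00193) on its brightest probe, while its second probe gave -0.05 (adjusted p = 0.875). The part of these markers in the results below was not tested. Primitive endoderm markers were detected for 4 of 5 genes, with summed intensities of 1125 to 1337 at 9 and 12 h, against 1364 to 1487 at 0 h. In bulk RNA, fewer cells of a type and less RNA per cell cannot be told apart.

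Promoters are shown for 4 genes because the results below turn on them in opposite directions: the immediate early genes Jun and Fos, which rose, and the naive pluripotency genes Klf2 and Klf4, which fell. Each runs 5′ to 3′ on the gene's strand, from 250 bases before to 50 bases after the transcription start in RefSeq (GRCm38.p6). Capitals mark matches on either strand to the GC box GGGCGG, to the CRE-type sequence TGACNTCA and to the CRE half-site TGACGT.
Jun (chr4:95052173-95052472, minus strand): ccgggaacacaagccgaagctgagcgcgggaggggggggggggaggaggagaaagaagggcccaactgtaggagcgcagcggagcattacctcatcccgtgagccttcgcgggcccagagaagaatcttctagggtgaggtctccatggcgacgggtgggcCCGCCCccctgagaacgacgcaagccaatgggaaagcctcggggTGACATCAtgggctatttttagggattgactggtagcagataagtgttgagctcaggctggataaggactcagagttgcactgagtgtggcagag
Fos (chr12:85473640-85473939, plus strand): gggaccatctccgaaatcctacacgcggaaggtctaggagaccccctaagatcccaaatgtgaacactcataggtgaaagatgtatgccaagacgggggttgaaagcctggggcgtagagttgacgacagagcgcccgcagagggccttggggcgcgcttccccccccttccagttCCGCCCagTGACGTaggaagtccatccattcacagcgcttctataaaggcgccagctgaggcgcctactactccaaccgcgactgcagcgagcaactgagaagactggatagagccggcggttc
Klf2 (chr8:72318812-72319111, plus strand): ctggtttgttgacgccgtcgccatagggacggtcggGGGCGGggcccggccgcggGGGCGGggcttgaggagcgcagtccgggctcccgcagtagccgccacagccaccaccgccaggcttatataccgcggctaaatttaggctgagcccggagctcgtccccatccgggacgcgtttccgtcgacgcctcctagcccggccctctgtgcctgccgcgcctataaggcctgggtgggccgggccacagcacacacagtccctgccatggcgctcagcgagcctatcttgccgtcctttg
Klf4 (chr4:55532426-55532725, minus strand): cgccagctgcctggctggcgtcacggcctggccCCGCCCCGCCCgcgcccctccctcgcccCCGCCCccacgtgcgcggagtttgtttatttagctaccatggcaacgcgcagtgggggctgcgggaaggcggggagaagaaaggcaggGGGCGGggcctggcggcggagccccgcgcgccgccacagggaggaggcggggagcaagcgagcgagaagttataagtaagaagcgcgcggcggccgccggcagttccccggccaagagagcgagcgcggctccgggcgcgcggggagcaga
The Jun window held 1 CRE-type match and 1 GC box, and the Fos window 1 CRE half-site and 1 GC box. The Klf2 window held 2 GC boxes and the Klf4 window 4. Motif shares in the promoters of called genes were set beside those of all tested genes. The GC box occurred in 64.7% of 730 promoters of genes that rose and in 67.8% of 513 promoters of genes that fell, beside 63.4% of all 7849 promoters of tested genes. The CRE-type sequence was found in 7.12% of promoters of risen genes, 5.26% of promoters of fallen genes and 6.80% of all. The CRE half-site, which is contained in some CRE-type matches, stood at 9.73%, 10.1% and 11.7% in the same order. The AP-1 sequence TGANTCA was at 4.80%, 5.07% and 5.10%. The E2F sequences TTTCCCGC, TTTGGCGC, TTTCGCGC and TTTGCCGC together were at 2.88%, 4.29% and 4.06%. The octamer ATTTGCAT was at 2.19%, 2.73% and 1.40%. These are matches of letters in 1 window per gene, on both strands, and are given as a description.

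After 9 and 12 h of induction, 1158 probes had risen and 980 had fallen relative to 0 h, together 2138 of the 13974 tested (15.3%), and most changes were small. The median log2 difference was 0.42 among the higher and -0.42 among the lower probes, and 38 higher and 29 lower probes reached a difference of 1. Higher calls made up 54.2% of the total, but 43.0% when arrays were scaled to a common median in place of quantile normalization, so the data do not settle which direction held more genes. All 4 arrays of 9 and 12 h lay on the same side of both 0 h arrays for 2105 of the 2138 called probes and for 5116 of all tested probes (36.6%). With 1 probe per gene, 932 of 9614 genes rose (9.69%) and 626 fell (6.51%). The 0 h pair limited this count: it was 1035 probes without its replicate 1 and 1116 without its replicate 2.

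**Figure D1:**
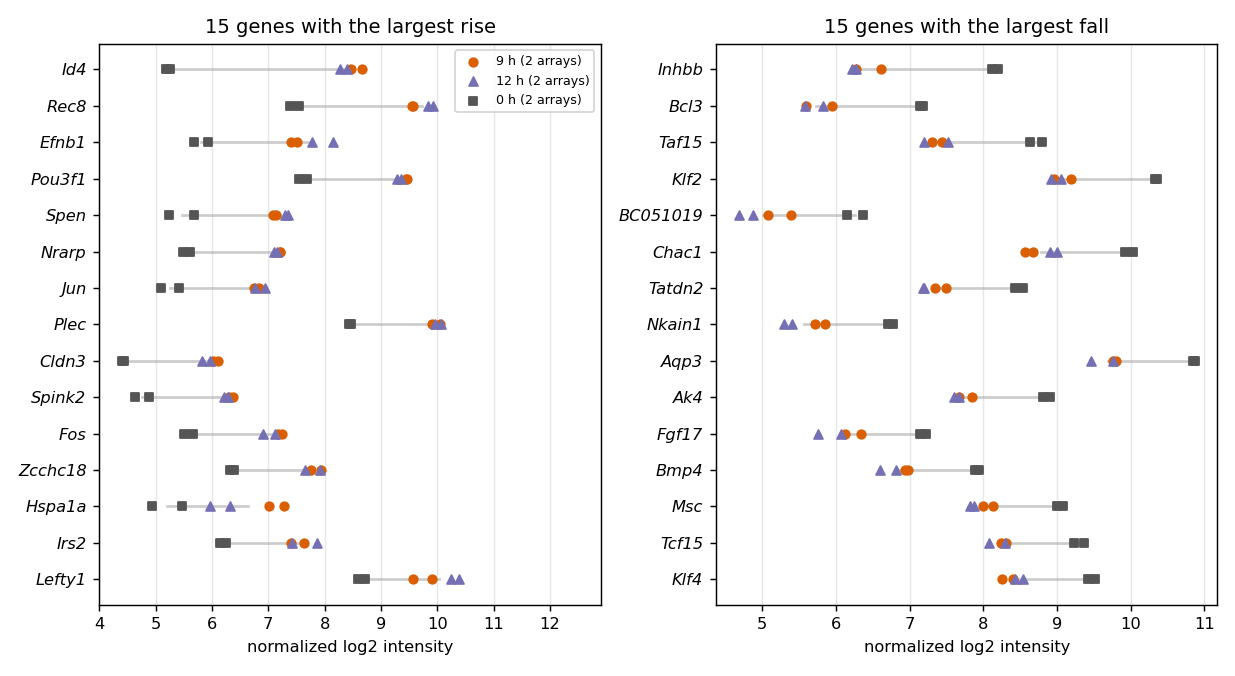
Normalized log2 intensity of the 15 genes that rose most and the 15 that fell most, 1 point per array for 9 h, 12 h and 0 h, with a line joining the pooled and 0 h means. Genes were chosen so that the 4 points of 9 and 12 h lie on the same side of both 0 h points. Hspa1a shows the widest gap between 9 h and 12 h.

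The genes with the highest and lowest differences were picked among called genes whose 4 arrays of 9 and 12 h all lay beyond both 0 h arrays. A lack of overlap in these genes follows from that choice. Id4, an inhibitor of basic helix-loop-helix factors, had the highest fold change. Its level was 8.47 and 8.67 at 9 h and 8.39 and 8.28 at 12 h, against 5.26 and 5.18 at 0 h. All 4 induced arrays stood far above the 0 h pair and close to each other, a 9.39-fold rise (log2 difference 3.23, SE 0.09, adjusted p = 2.79e-11). Rec8, the meiotic cohesin subunit, was at 9.55 and 9.57 at 9 h and 9.93 and 9.84 at 12 h, against 7.54 and 7.38 at 0 h, with no overlap between the groups. It rose 4.80-fold (log2 difference 2.26, SE 0.08, adjusted p = 5.41e-10). Efnb1, a membrane-bound ligand of Eph receptors, was at 7.41 and 7.52 at 9 h and 8.15 and 7.77 at 12 h, against 5.68 and 5.93 at 0 h. Both 12 h arrays lay above both 9 h arrays, and the pooled rise was 3.74-fold. Pou3f1 (Oct6), a POU factor of the primed epiblast and of early neural cells, was at 9.46 and 9.45 at 9 h and 9.36 and 9.28 at 12 h, against 7.69 and 7.55 at 0 h. The 4 induced arrays differed little among themselves and the rise was 3.40-fold (adjusted p = 1.28e-07).

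The other genes with the highest rises came from signalling, transcription and the cytoskeleton. Spen, a transcriptional corepressor, rose by 1.75 on the log2 scale, and Nrarp, a feedback inhibitor of Notch signalling, rose by 1.62. Plec, which encodes the cytoskeletal linker plectin, was at 9.91, 10.04, 10.07 and 9.96 on the 9 and 12 h arrays, against 8.43 and 8.46 at 0 h. This was a tight 2.93-fold rise with no overlap. Irs2, an adaptor of the insulin receptor, rose 2.61-fold and Zcchc18 rose 2.75-fold. At 0 h neither array measured Spink2, a protease inhibitor, well above background. It averaged 6.29 at 9 and 12 h and 4.75 at 0 h, at least 2.22-fold higher (adjusted p = 3.99e-07). A bound of this kind sets the 9 and 12 h mean against the detection limit of the 0 h arrays.

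Inhbb, which encodes the activin B subunit, fell furthest. It was at 6.28 and 6.61 at 9 h and 6.21 and 6.28 at 12 h, against 8.20 and 8.12 at 0 h. The groups were widely separated, and the level fell by 1.82 on the log2 scale, or 3.52-fold (SE 0.15, adjusted p = 2e-06). Bcl3, an atypical IκB protein and a target of LIF signalling in mouse embryonic stem cells, was at 5.95 and 5.60 at 9 h and 5.57 and 5.82 at 12 h, against 7.14 and 7.18 at 0 h. It was 2.68-fold lower with no overlap. Taf15, an RNA-binding protein of the FET family, was 2.55-fold lower, and Aqp3, a water and glycerol channel, was 2.24-fold lower. Ak4, a mitochondrial adenylate kinase, fell by 1.16 on the log2 scale. Tatdn2 was at 7.35 and 7.49 at 9 h and 7.20 and 7.18 at 12 h, against 8.54 and 8.44 at 0 h. Its 2.27-fold fall left a wide gap between the groups. Nkain1, which encodes a protein that interacts with a sodium pump subunit, was at 5.85 and 5.71 at 9 h and 5.41 and 5.29 at 12 h, against 6.70 and 6.77 at 0 h. Both 12 h arrays were below both 9 h arrays, which were below the 0 h pair (log2 difference -1.17). BC051019 fell by 1.25 and was detected on 1 of the 4 arrays of 9 and 12 h. Jam2, a junctional adhesion molecule, fell by 0.91 on its brightest probe, and 3 further probes gave -1.55, -1.55 and -1.36; it was singled out after these values were seen.

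The naive pluripotency genes fell together. Of 17 tested, 13 were lower and 0 were higher, with a median log2 difference of -0.63, beside 6.51% lower and a median of 0.01 over all genes. The 13 include Manba (-0.71), an enzyme gene rather than one of the network factors named above. Klf2 was at 9.19 and 8.96 at 9 h and 9.05 and 8.92 at 12 h, against 10.36 and 10.33 at 0 h. All 4 induced arrays were more than 1 log2 unit below the 0 h pair (log2 difference -1.32, SE 0.11, adjusted p = 2.01e-06). Klf4 was at 8.25 and 8.40 at 9 h and 8.43 and 8.53 at 12 h, against 9.52 and 9.41 at 0 h. It was 2.09-fold lower (log2 difference -1.06, SE 0.10, adjusted p = 5.59e-06), and both of its other tested probes gave lower values still, -1.24 and -1.21. Klf2 and Klf4 are Krüppel-like factors that hold the naive state in part redundantly with Klf5, which fell by less (-0.46, adjusted p = 0.00574).

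Further members of the naive group fell by smaller amounts. Esrrb, an orphan nuclear receptor and a central naive factor, was at 10.96 and 10.99 at 9 h and 11.14 and 11.02 at 12 h, against 11.95 and 11.84 at 0 h. Its fall was 1.82-fold (adjusted p = 7.18e-06). Nanog was at 11.11 and 11.05 at 9 h and 11.21 and 10.96 at 12 h, against 11.80 and 11.55 at 0 h. The 4 induced arrays lay below both 0 h arrays, and the fall was 1.50-fold (adjusted p = 0.000545). Zfp42 (Rex1), a marker of the naive state, fell by 0.79 on the log2 scale, Tbx3 by 0.73 and Gbx2 by 0.63. Fgf4, the autocrine FGF of these cells, fell by 0.92. Nr5a2 fell by 0.64 on its brightest probe, while its other probes gave -0.82 (adjusted p = 0.000405) and -0.03 (adjusted p = 0.889). The values of the 4 members that were not called were -0.19 for Prdm14, which was not well above background at any of the 3 times, -0.18 for Dppa5a, 0.03 for Zscan10 and 0.21 for Dppa4.

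Of 9 core pluripotency genes, 6 were lower and 0 higher, with a median of -0.36, beside 6.51% lower and a median of 0.01 over all genes. Whether they fell less than the naive genes was not tested, and Sox2 and Rif1 had differences of the size of Nanog and Gbx2. Pou5f1 was at 12.55 and 12.52 at 9 h and 12.35 and 12.48 at 12 h, against 12.92 and 12.76 at 0 h. All induced values were lower, and the difference was 1.29-fold (log2 difference -0.36, SE 0.07, adjusted p = 0.00429). Sox2 was at 8.59 and 8.78 at 9 h and 8.40 and 8.58 at 12 h, against 9.04 and 9.33 at 0 h. It was 1.51-fold lower without overlap (adjusted p = 0.00533), but a second Sox2 probe gave -0.25 (adjusted p = 0.218). Rif1, a telomere-associated and replication-timing factor, fell by 0.69, and Tdgf1 (Cripto), the Nodal co-receptor, by 0.38. This group depended on a single 0 h array: without 0 h replicate 2, 2 of the 9 were called.

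**Figure D2:**
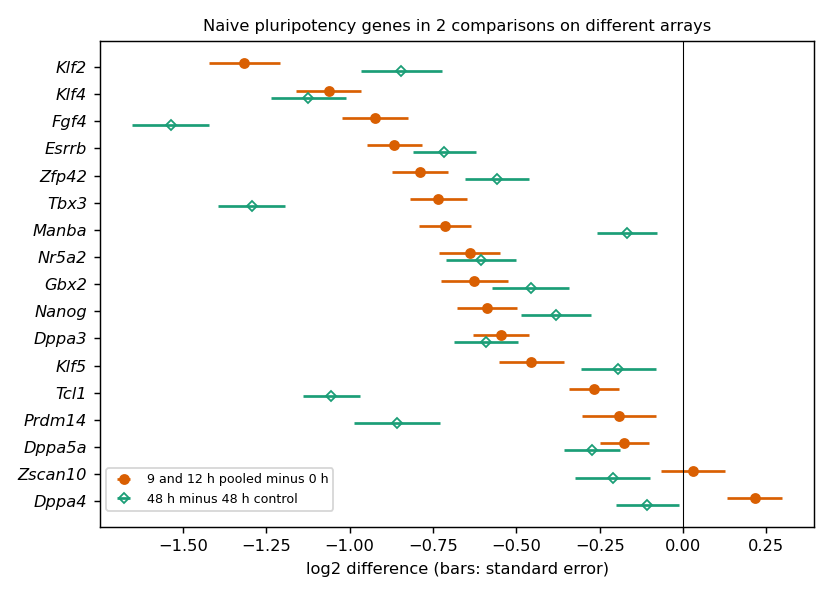
Log2 differences of the naive pluripotency genes at 9 and 12 h against 0 h and at 48 h against the 48 h control, with standard errors. Of the 17 genes, 13 were called lower in each comparison and 11 in both, and the 2 comparisons share no array.

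The 48 h pair gives the naive genes in arrays not used above. At 48 h, 13 of the 17 were lower than in the 48 h control (9.61% of all genes were) and 0 were higher, with a median of -0.59, and 11 of these were also lower at 9 and 12 h. Klf4 averaged 9.33 at 48 h and 10.45 in the control (log2 difference -1.12, adjusted p = 7.37e-06), and Fgf4 averaged 6.49 at 48 h and 8.03 in the control. The control itself did not stay at the 0 h level. Over the 17 genes its median log2 difference from 0 h was 0.79, a level above the start of the course. A gene lower than the control at 48 h was therefore not always below its 0 h level. Nanog was at 12.11 and 12.06 at 48 h, against 11.80 and 11.55 at 0 h. Fgf4, at 6.35 and 6.63 at 48 h, was still below its 0 h values of 7.09 and 7.27. Over all 2138 early calls, 642 (30.0%) were called in the same direction at 48 h against the control and 145 (6.78%) in the opposite one. That comparison called 17.9% of all tested probes and 19.2% of genes. Its 2502 probe calls dropped to 1409 and 1475 when either 48 h array was left out, and to 1552 when the second control array was. The same-direction and opposite-direction shares over all 13974 tested probes were 12.3% and 5.59%.

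Genes of the primed epiblast did not move as a block. Of 7 tested, Pou3f1, Cldn6 (0.97) and Krt18 (0.53) rose, Zic2, a zinc finger factor of the epiblast and neural plate, fell by 0.76, and 3 were not called. Over all genes, 9.69% rose and 6.51% fell. Epithelial genes shifted one way: 6 of 11 rose and 0 fell, with a median of 0.35, beside 9.69% higher over all genes. The risen members were the tight junction claudins Cldn3, Cldn4 (0.67) and Cldn6, the splicing regulator Esrp1 (0.54) and the keratins Krt18 (0.53) and Krt8 (0.35). Cldn6 and Krt18 are counted in both the primed epiblast and the epithelial list. Cldn3 was at 6.01 and 6.10 at 9 h and 5.82 and 5.96 at 12 h, against 4.44 and 4.41 at 0 h. With neither 0 h value well above background, the rise was at least 1.78-fold (adjusted p = 7.68e-07). Cdh1, the E-cadherin gene, gave 0.21 and was not called (adjusted p = 0.0902). All 6 risen epithelial genes were also higher at 48 h than in the 48 h control, where 7 of the 11 were called higher and 9.58% of all genes were.

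Several immediate early genes rose, while Spry4, Etv4, Etv5 and Myc fell. Of 14 tested genes in the list of FGF-ERK feedback and immediate early genes, 6 were higher and 4 lower, beside 9.69% higher and 6.51% lower over all genes. Jun was at 6.74 and 6.83 at 9 h and 6.76 and 6.94 at 12 h, against 5.10 and 5.42 at 0 h, where it was detected on 1 of 2 arrays. The rise was 2.94-fold (adjusted p = 1.04e-06). Fos, which pairs with Jun to form AP-1, was at 7.24 and 7.16 at 9 h and 7.12 and 6.90 at 12 h, against 5.66 and 5.51 at 0 h. Its induced arrays were all above the 0 h pair, and the rise was 2.87-fold (adjusted p = 1.33e-07). Egr1 rose by 0.81, Ier3 by 0.81, Junb by 0.58, and Dusp1, a phosphatase that turns MAP kinases off, by 0.80. Dusp4 and Dusp6, phosphatases of the FGF-ERK feedback, gave -0.16 and -0.12 on their brightest probes and were not called, although 1 further Dusp6 probe was called at -0.67. The feedback inhibitor Spry4 fell by 0.79, and the ETS factors Etv4 and Etv5 fell by 0.60 and 0.57. Myc was detected on both 0 h arrays and not well above background on any of the 9 and 12 h arrays, and was at least 1.35-fold lower there (adjusted p = 0.00147).

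Ligands and inhibitors of the Nodal and BMP pathways moved in different directions. Lefty1, a secreted Nodal antagonist and Nodal target, was at 9.90 and 9.58 at 9 h and 10.38 and 10.24 at 12 h, against 8.71 and 8.59 at 0 h. It rose 2.59-fold over the pooled times (adjusted p = 4.49e-07), and Lefty2 rose by 0.63. The ligands fell: Nodal by 0.32, Inhbb by 1.82, and Bmp4, the BMP ligand that supports self-renewal in culture, by 1.08. Bmp4 was at 6.98 and 6.93 at 9 h and 6.59 and 6.81 at 12 h, against 7.88 and 7.95 at 0 h. The Id genes, which BMP signalling induces in these cells, rose, with Id1 at 0.44 and Id3 at 0.55 beside the 3.23 of Id4. In all, 6 of 12 tested genes of the list were higher and 3 lower, beside 9.69% and 6.51% over all genes. Fgf17 was 2.16-fold lower, and Msc and Tcf15, both basic helix-loop-helix factors, were each about 1.1 log2 units lower (-1.08 and -1.07).

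The share of E2F targets called higher was near that of all genes. Of 25 E2F targets of the G1/S transition, 2 were higher (E2f3 at 0.33 and Cdc45 at 0.27) and 0 lower, beside 9.69% higher and 6.51% lower over all genes. Their median was 0.01, as over all genes. With arrays scaled to a common median, 0 of the 25 were called. Of 14 genes of G2/M and mitosis, 1 was higher, against the same 9.69%. Within the retinoblastoma and E2F family, Rb1 gave 0.16 (adjusted p = 0.228) and Rbl1 gave 0.01 (adjusted p = 0.966), neither called, while the repressor E2f4 fell by 0.45. Among coactivators and chromatin proteins that bind E1A, the acetyltransferase genes Kat2a and Kat2b fell by 0.33 and 0.41, 2 of 10 tested beside 6.51% lower over all genes, and Ep300 gave -0.21 (adjusted p = 0.146). Crebbp and Rbl2 were not among the named probes that passed the detection filter.

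Regulators upstream of the cell cycle did change. Cdkn1c (p57), a cyclin-dependent kinase inhibitor and imprinted gene, was at 9.75 and 9.62 at 9 h and 9.91 and 9.82 at 12 h, against 8.57 and 8.71 at 0 h. Its rise of 1.13 on the log2 scale was well separated (2.19-fold, adjusted p = 7.68e-07). Of the D cyclins, Ccnd2 rose by 0.87 and Ccnd1 by 0.60, with further Ccnd1 probes at 0.65 (adjusted p = 2.61e-05) and -0.11 (adjusted p = 0.579). Ccnd3 fell by 0.32, with further probes at -0.43 (adjusted p = 0.048) and -0.04 (adjusted p = 0.884). Cdkn1a (p21) gave -0.08 on its brightest probe and was not called, while 1 of its other probes was called at -0.44. In total, 4 of 10 tested cyclin-dependent kinase inhibitors and D cyclins rose and 2 fell, beside 9.69% and 6.51% of all genes.

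Genes of the unfolded protein and amino acid response, called stress response genes below, were lower. Of 15 tested, 8 fell and 0 rose, with a median of -0.32, beside 6.51% lower and a median of 0.01 over all genes. Chac1, a glutathione-degrading enzyme induced by Atf4, was at 8.67 and 8.57 at 9 h and 9.00 and 8.90 at 12 h, against 10.03 and 9.93 at 0 h. It was 2.29-fold lower (adjusted p = 1.98e-06). Atf4 itself fell by 0.61, its target and inhibitor Trib3 by 0.76, and the mitochondrial folate enzyme Mthfd2 by 0.58. Asns and Ddit3 gave -0.11 and -0.17 on their brightest probes and were not called, although 1 further Asns probe was called at -0.31. Without 0 h replicate 1, 5 of the 15 were called. At 48 h against the control, 0 of the 15 were called, with a median of -0.13.

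**Figure D3:**
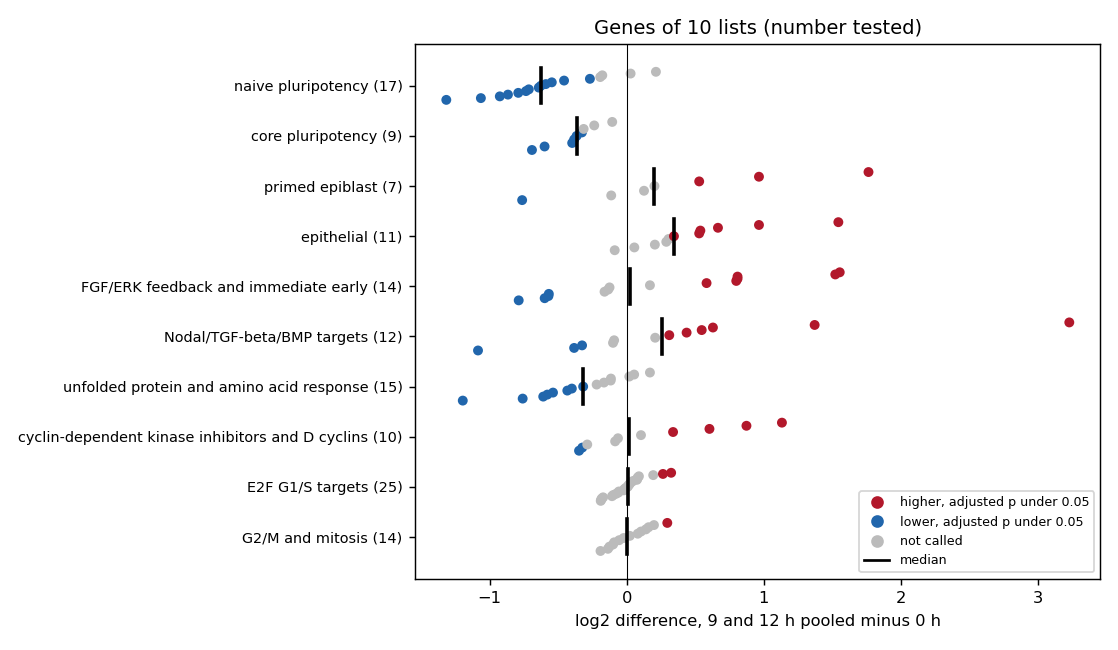
Log2 differences at 9 and 12 h against 0 h for every tested member of the gene lists shown, 1 point per gene, with called genes in colour, other genes in grey and list medians marked. Naive pluripotency lies lowest, with a median of -0.63, and epithelial genes lie above 0, with a median of 0.35.

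The 2 pooled times differed little. The direct contrast of 12 h with 9 h shares no 0 h array and is independent of the pooled difference in this balanced design. It called 0 of 13974 probes (0%), with a smallest adjusted p of 0.186. With other background, offset or moderation settings in limma it called 3 to 5 probes. An unadjusted p under 0.05 was reached by 1149 probes, a larger share than the 0.05 that chance alone would pass. Of the 2138 probes called in the pooled comparison, 287 were among them. The median 95% interval of a 12 h minus 9 h difference reached 0.25 to either side, so smaller differences between the times could not be resolved for single probes. That interval is not adjusted for the number of probes, and larger differences also went uncalled. Hspa1a, at -1.01, had an adjusted p of 0.186 in this contrast. Of the 2138 probes called in the pooled comparison, 16 differed by more than 0.5 between the times and 1 by more than 1.

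Differences between the times ran mostly onward in the direction of the response. Among the 1158 higher probes the median 12 h minus 9 h difference was 0.04, and 729 of them (63.0%) were higher at 12 h than at 9 h. Among the 980 lower probes it was -0.06, and 627 (64.0%) were lower at 12 h. Over all tested probes, 54.7% went onward in this sense. The median difference from 0 h of the higher probes was 0.40 at 9 h and 0.45 at 12 h, and that of the lower probes was -0.41 at 9 h and -0.45 at 12 h. Against 0 h, 1239 probes (8.87%) were called at 9 h and 1852 (13.3%) at 12 h, comparisons that share the 0 h arrays. Of the 2138 pooled calls, 942 passed at both times, 231 at 9 h alone, 690 at 12 h alone and 275 at neither. No probe was called in opposite directions at 9 and 12 h. The single-time counts varied with the arrays: 9 h gave 578 and 736 without its replicates 1 and 2, and 687 and 720 without those of 0 h. The 12 h count was 1019 without its replicate 1, and 1058 and 1013 without 0 h replicates 1 and 2.

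**Figure D4:**
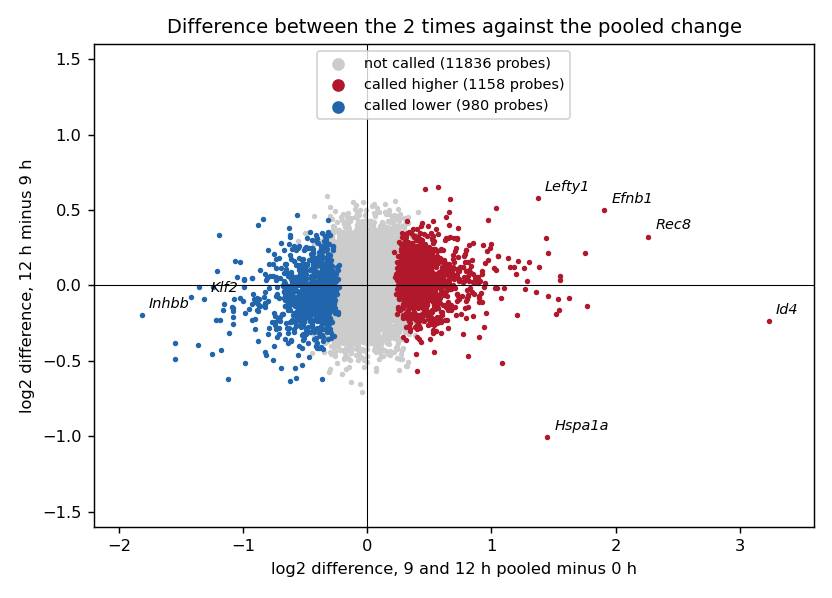
Log2 difference between 12 h and 9 h (vertical) against the pooled log2 difference from 0 h (horizontal) for each tested probe, with called probes in colour. Called probes lie mostly within 0.5 of the horizontal line, and Hspa1a lies furthest from it, at -1.01.

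The gene with the widest gap between the times was Hspa1a, an inducible Hsp70 chaperone whose probe may also read its near-identical copy Hspa1b. It was at 7.29 and 7.01 at 9 h and 6.33 and 5.96 at 12 h, against 4.93 and 5.47 at 0 h, where it was detected on 1 of 2 arrays. Both 12 h arrays lay between the other groups. The 12 h minus 9 h difference was -1.01 (95% interval -1.35 to -0.66), with an adjusted p of 0.186 over all probes. Lefty1 ran the other way, at 0.58 (95% interval 0.35 to 0.81, adjusted p = 0.194). As a list the naive genes held level, with medians of -0.59 at 9 h and -0.63 at 12 h. No member differed by more than 0.28 between the times. Zfp42 was at 10.85 and 10.71 at 9 h and lower on both 12 h arrays, at 10.47 and 10.54. Klf4, at 8.25 and 8.40 at 9 h, was higher on both 12 h arrays, at 8.43 and 8.53. Nanog differed by 0.01 (95% interval -0.22 to 0.23) and Klf2 by -0.09 (95% interval -0.35 to 0.17). The list medians of the stress response genes were -0.22 at 9 h and -0.42 at 12 h. The median 12 h minus 9 h difference of these genes was -0.01. Among them Chac1, with a difference of 0.33 (95% interval 0.10 to 0.57), and Atf4, with 0.24 (95% interval 0.04 to 0.44), were higher at 12 h than at 9 h, neither passing the adjusted test.

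**Figure D5:**
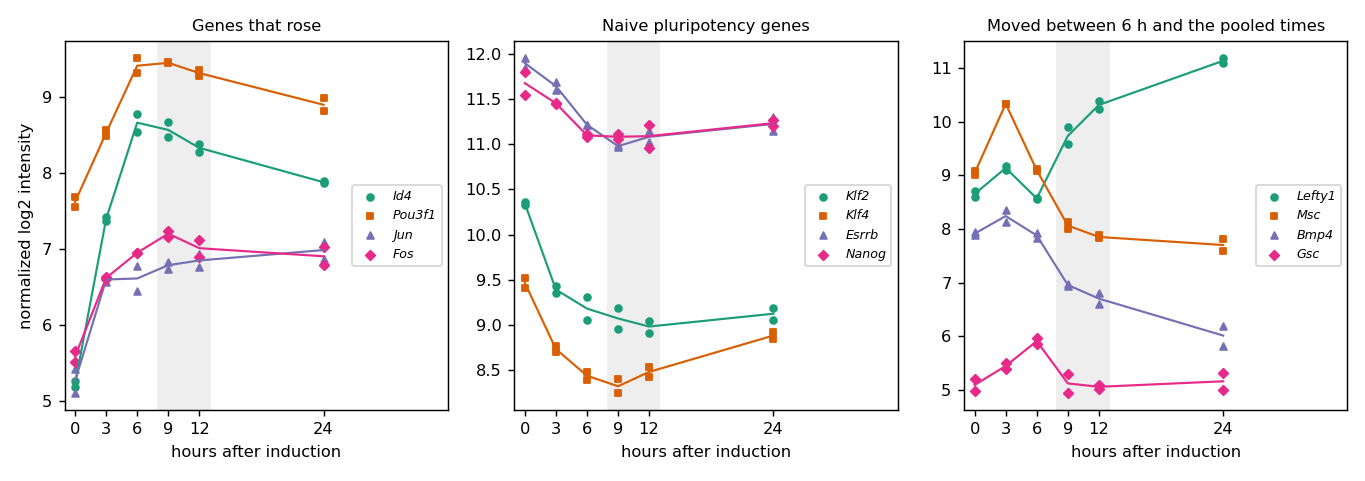
Normalized log2 intensity of 12 genes from 0 to 24 h of E1A induction, 1 point per array and lines through group means, with the pooled times shaded. Jun and the naive genes show most of their change by 6 h, while Lefty1 and Bmp4 move mainly after 6 h.

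Much of the early change was already present at 6 h. The probes called higher had a median difference from 0 h of 0.16 at 3 h, 0.36 at 6 h and 0.52 at 24 h. Those called lower had -0.17, -0.34 and -0.50 at the same times, all measured from the same 0 h arrays. The pooled times differed from 6 h at 65 probes (0.465%), 20 higher and 45 lower, a count that fell to 8 without 6 h replicate 1 and 10 without 6 h replicate 2. It was 26, 36, 41 and 39 without each of the 9 and 12 h arrays in turn. Genes in this contrast were picked after its values were seen, apart from those named above. Msc was 1.29 above 0 h at 3 h, near its 0 h level at 6 h (0.05) and 1.08 below it at 9 and 12 h. Bmp4 stood at -0.03 at 6 h and fell by 1.05 between 6 h and the pooled times (adjusted p = 0.00063). Lefty1 stood at -0.08 at 6 h and was 1.45 higher at the pooled times (adjusted p = 3.3e-06). The homeobox genes Otx1 and Gsc were lower at the pooled times than at 6 h. Otx1 was 1.71 above 0 h at 6 h and remained 0.81 above it at the pooled times and 0.74 above it at 24 h. Gsc was 0.82 above 0 h at 6 h and was not called at the pooled times (adjusted p = 0.992).

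Levels at 9 and 12 h did not form a plateau lasting to 24 h. At 24 h, 1010 probes were higher and 846 lower than at the pooled times (13.3% of those tested). This count was 644 without 24 h replicate 1 and 787 without 24 h replicate 2. Of the 2138 early calls, 407 moved further from 0 h by 24 h and 163 moved back, beside 1198 and 658 of all 13974 tested probes. Rec8 rose by a further 0.96 (adjusted p = 1.2e-05) and Lefty1 by 1.11. Cldn6 rose by a further 0.77 and Krt8 by 0.78. Pou5f1 fell by a further 0.41 (adjusted p = 0.0029). Chac1 and Atf4 returned upward by 1.08 and 0.52, and Egr1, which had been 0.81 above 0 h at the pooled times, fell by 1.61, leaving it 0.80 below 0 h at 24 h. Klf4 recovered by 0.48 (adjusted p = 0.0053), whereas the 24 h values of Klf2, Nanog and Esrrb differed from the pooled ones by 0.10, 0.15 and 0.19, none of them called.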

How the data were processed

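Total RNA of 16 mouse embryonic stem cell samples was amplified, biotin-labelled and measured on Illumina bead arrays, per the labels' protocols. The deposited table gives a linear intensity and a detection p-value per probe and array, called non-normalized per the file headers. The authors' processed values in the series matrix are log2 values. The submitters' processing notes name BeadStudio 3.2, lumi and RMA without their roles. Of 25697 probes, 23978 were paired with 1 gene each by the platform annotation, 0 with several and 1719 with none. Symbols were checked against RefSeq (GRCm38.p6).

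The deposited intensities were passed through limma's neqc (limma 3.58.1, R 4.3.3): normexp background correction by detection p, offset 16, quantile normalization and log2. The filter kept 13974 probes detected (p-value under 0.05) on 2 or more of 16 arrays, of which 13132 were named. The offset understates fold changes of dim probes, and the number of arrays limits the precision. The limma fit covered all 16 arrays with a coefficient for each group (8 residual and 6.30 prior degrees of freedom). Contrasts were the mean of 9 and 12 h minus 0 h, each time minus 0 h, and 12 h minus 9 h; the 6 h, 24 h and 48 h contrasts were added later. P-values were adjusted by Benjamini-Hochberg over all tested probes. Each gene was read from its probe with the highest mean, giving 9614 genes, and for some named genes other probes that disagreed are given; further uncalled genes, among them Sall4 and Uhrf1, had a dimmer probe that was called. A probe at or above the detection threshold on every array of a group has a bound in place of a fold. The procedure was tested on simulated data with known changes.

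The text names the 15 highest and 15 lowest called genes without overlap, called or defining members of 32 gene lists, and 10 fixed genes; exceptions are stated. The members and lists were chosen with earlier results of these data known. Of the per-sample columns, 0 were left unmatched. Normalization, background, filter, offset, moderation, threshold, pooling, replicate block and left-out replicates were varied.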

Additional observations from a re-analysis of the deposited data

Results flagged for a closer look

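Of the 30 genes with the highest and lowest differences, 2 had an array that stood apart from the other 3 of the 9 and 12 h group; chance flags about 1 in 20. Inhbb was at 6.61 on 9 h replicate 2, with the nearest of the others at 6.28. Aqp3 was at 9.46 on 12 h replicate 1, with the nearest at 9.76. Without single replicates the log2 difference of Inhbb ran from -1.90 to -1.73 and that of Aqp3 from -1.24 to -1.09.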

How the results depend on the processing

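All 30 genes with the highest and lowest differences kept direction and threshold under every alternative tried (595 values). Of 243 further values, 183 stayed close to the main value and 60 moved. Stricter rules gave fewer calls: at an adjusted p under 0.01 the pooled comparison had 1039, 9 h 572, 12 h 870, pooled against 6 h 19, 24 h against pooled 720 and 48 h against the control 1342. Requiring also a log2 difference of 1 left 67, 62, 81, 3, 24 and 199 in that order, and 2 naive, 0 core, 1 epithelial and 1 stress response gene. With single replicates left out, counts ran from 1035 to 2004 (pooled), 578 to 736 (9 h), 1013 to 1338 (12 h), 0 in every case (12 h against 9 h), 8 to 41 (pooled against 6 h), 644 to 1671 (24 h against pooled) and 1409 to 1883 (48 h against the control). Naive genes lower ran from 11 to 13, core from 2 to 6, epithelial higher from 5 to 6, stress response lower from 5 to 8, E2F targets higher from 0 to 1, and the share of higher calls from 52.9% to 55.8%. The share was 43.0% with median scaling. E2F targets higher numbered 0 with median scaling, with the 6 arrays alone and with the 4 arrays as 1 group. For 12 h against 9 h, 3 probes were called without background correction, 5 with trended, robust moderation, and 3 with an offset of 50. The 6 h comparison, added after seeing the data, was the least stable, at 159 without background correction, 20 on the authors' processed values, 136 with trend and robust moderation and 150 with an offset of 50. The causes were not tested. The replicate numbers were not treated as a pairing: deviations of same-numbered arrays correlated at 0.22 between 9 and 12 h, -0.02 between 9 and 0 h and -0.07 between 12 and 0 h. With the number as a block the pooled comparison had 2463 calls, and the 6 h comparison 110. Probes of Prdm14 and Hes5 were not above background at any of the 3 times; the call of Hes5 enters the counts of the neural progenitor and Notch lists.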

Other observations

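Imprinted genes moved in both directions: of 12 tested, 3 were higher and 4 lower at 9 and 12 h than at 0 h, beside 9.69% higher and 6.51% lower over all genes. Phlda2, a placental growth regulator next to Cdkn1c, was at 9.24 and 9.35 at 9 h and 9.33 and 9.37 at 12 h, against 8.52 and 8.51 at 0 h. It rose 1.74-fold with no overlap (limma, adjusted p = 9.05e-06), while Igf2 fell by 0.43 on the log2 scale, Dlk1 by 0.59 and Grb10 by 0.33. Genes of the 2-cell-like state split, with Tcstv1 and Tcstv3 both 0.44 higher and 3 of 7 lower. At 48 h against the control all 7 were lower (9.61% of all genes were), with a median of -1.57. The control itself did not stay at the 0 h level, with a median log2 difference of 1.30 from 0 h over the 7 genes. These families hold near-identical copies that 1 probe can read together, and the second Gm5662 probe gave 0.12 where the first gave -0.53.

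Against the same shares over all genes, 1 of 16 p53 targets rose and 3 fell, and of 9 heat shock genes, 3 rose and 1 fell, with 1 of 9 higher under median scaling. Of 11 trophectoderm-list genes tested, 4 rose and 1 fell, beside 9.69% higher and 6.51% lower over all genes. Rhox6 (0.44) and Rhox9 (0.47) were among the risen members and Tfap2c fell by 0.55, while the defining genes Cdx2, Elf5 and Hand1 were not detected. Mmp2 rose by 0.73 and Egln3 by 0.80. Ribosome biogenesis and MYC target genes had 3 of 16 lower, including Nop56 (-0.51). Of 5 neural progenitor genes tested, 3 were called higher and 0 lower, with a median of 0.34: Nes (0.61, with a second probe at -0.05), Map2 (0.40) and Hes5, which was not well above background at any of the 3 times and so has no measured difference. Tubb3 and Dcx gave 0.02 and -0.13 and were not called. The remaining lists had 0 to 3 members called in either direction, among them Notch targets (2 of 8 higher, Nrarp and the same Hes5 probe) and actin and SRF genes (3 of 12 higher, 1 of 12 with median scaling).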
